A study of Mus musculus with 12 samples.

Results

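The laminin chains were followed in mouse ES cells and in the XEN-like cells made from them by activation of Gata6. The members were the 9 genes *Lama1*, *Lama2*, *Lama3*, *Lama4*, *Lama5*, *Lamb1*, *Lamb2*, *Lamb3* and *Lamc1*, chosen by gene name, and they are read by 11 of the 55681 probes on the array, which carry 34836 gene names. RNA of 4 groups was hybridized to 12 one-colour arrays, 3 per group. All groups descend from the EB3 ES cell line and carry Gata6GR, a Gata6 protein fused to the ligand-binding domain of the glucocorticoid receptor, which dexamethasone (Dex) brings into the nucleus. *Sox7* (+/−) cells are 1 heterozygous clone in which the coding sequence of 1 allele was replaced by a puromycin-resistance cassette, and *Sox7* (−/−) cells were selected from its progeny with a high dose of puromycin. Cells of each genotype were kept without Dex (ES) or for 4 days with Dex (XEN-like), both on gelatin with LIF. Each genotype is thus represented by 1 line. Sources of the 3 *Sox7* (+/−) ES arrays all carry replicate number 1, and nothing says that replicates were separate cultures, so p-values measure only the spread between these samples, which may be technical.

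Laminins are heterotrimers of 1 α, 1 β and 1 γ chain that assemble in the endoplasmic reticulum and polymerize into the sheet on which a basement membrane is built. Lama1, Lamb1 and Lamc1 form laminin-111, the main laminin of the early embryo and of Reichert's membrane, the thick basement membrane that parietal endoderm secretes. The Lama4 and Lama5 chains are found in the basement membranes of blood vessels, Lama2 in those of muscle and nerve, and Lama3 and Lamb3 in those of skin.

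Signals are given as multiples of the 75th percentile of the processed signal of the same array, and log2 differences are on the same scale. The 75th percentile lay between 251.8 and 413.8 intensity units, the scanner software's test put 41.7% to 52.3% of the spots well above background, and no spot was saturated. Replicates of a group correlated across probes with r between 0.982 and 0.996. Tests covered the 25940 probes for which some group had all 3 arrays well above background, and 8 of the 9 laminin genes were among them. Calls needed both an adjusted p (limma, Benjamini-Hochberg) under 0.05 and more than a 2-fold change. *Lamb3* entered the tests through the *Sox7* (+/−) ES group alone and *Lama4* through the 2 *Sox7* (+/−) groups, so counts and medians over the 8 genes are given as descriptions. A gene with several probes was read by the brightest. Of the 2 slides, the first carried the *Sox7* (−/−) ES group and replicate 1 of the *Sox7* (−/−) XEN-like cells (slide 1) and the second the other 8 arrays (slide 2), so the Dex response of *Sox7* (+/−) cells lies within slide 2. The *Sox7* probe was well above background on all 6 *Sox7* (+/−) arrays, with signals of 2.26, 2.19 and 2.30 in ES and 4.91, 4.96 and 6.90 in XEN-like cells, and on none of the 6 *Sox7* (−/−) arrays. Whether this probe lies inside the deleted sequence was not determined. Expression was measured in bulk, so fewer expressing cells and less RNA per cell cannot be told apart.

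The genotype result below turns on 1 probe, that of *Lama4*, whose 60 bases are shown because every *Lama4* value comes from it. The probe lies on chromosome 10, positions 38825794 to 38825853 of the mm9 build, on the plus strand, and 1 of its 3 forward reading frames has no stop codon.
*Lama4* probe: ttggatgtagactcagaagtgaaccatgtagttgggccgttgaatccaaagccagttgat

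Upstream sequences are shown for *Lamb1*, a chain that rose on Dex treatment in both genotypes, and *Lama5*, the bright chain with the opposite direction. They are the 250 bases before the RefSeq start on GRCm38.p6, chr12:31265043-31265292 on the plus strand and chr2:180225860-180226109 on the minus strand, each written 5′ to 3′. Entries were found for 5 of the 9 members, and *Lama1*, *Lama3*, *Lama4* and *Lamc1* had none. Both strands were searched for GATA, the core of the sites that GATA factors bind, and for ACAAT, a core of SOX sites, with matches to be set in capitals.
*Lamb1*: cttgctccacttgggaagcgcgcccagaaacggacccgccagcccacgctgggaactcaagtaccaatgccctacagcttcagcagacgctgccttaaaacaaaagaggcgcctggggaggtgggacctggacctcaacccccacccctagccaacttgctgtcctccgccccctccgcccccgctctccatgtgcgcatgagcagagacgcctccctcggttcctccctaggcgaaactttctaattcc
*Lama5*: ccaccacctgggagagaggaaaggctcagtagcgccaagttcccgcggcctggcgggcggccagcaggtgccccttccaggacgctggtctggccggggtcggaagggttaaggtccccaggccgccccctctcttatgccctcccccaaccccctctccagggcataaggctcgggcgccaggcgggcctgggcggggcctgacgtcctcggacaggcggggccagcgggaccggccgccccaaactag
Neither window holds either motif, which says only that these letters are not in these bases. GATA was present in 53.6% and ACAAT in 27.7% of the 32851 RefSeq windows of the same length. G and C made up 62% of the *Lamb1* window and 72.4% of the *Lama5* window, beside a median of 52.4% over all windows. The windows of *Lamb2* and *Lama2* hold GATA at 1 and 2 places, respectively, and the pair of *Lamb3* windows at none.

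Genes of all 3 laminin-111 chains rose on Dex treatment in both genotypes. In *Sox7* (+/−) cells 4 of the 8 tested laminin genes were called higher (*Lama1*, *Lama4*, *Lamb1* and *Lamc1*), where 10.9% of all tested probes were, and 2 were called lower (*Lama5* and *Lamb3*), where 14% of all probes were. *Lamb3* entered the tests through the *Sox7* (+/−) ES group alone, so the lower count is a description. In *Sox7* (−/−) cells 3 were called higher (*Lama1*, *Lamb1* and *Lamc1*), with 14.5% of all probes, and none lower, with 14.3% of all probes. There *Lama5* missed only the minimum fold (1.98-fold lower, adjusted p = 4.85e-06 by limma), and *Lamb3* missed only the adjusted p (0.0504). The median log2 change over the 8 genes was 1.06 in *Sox7* (+/−) and 0.594 in *Sox7* (−/−) cells, beside 0.151 and 0.0715 over all tested probes.

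**Figure D1:**
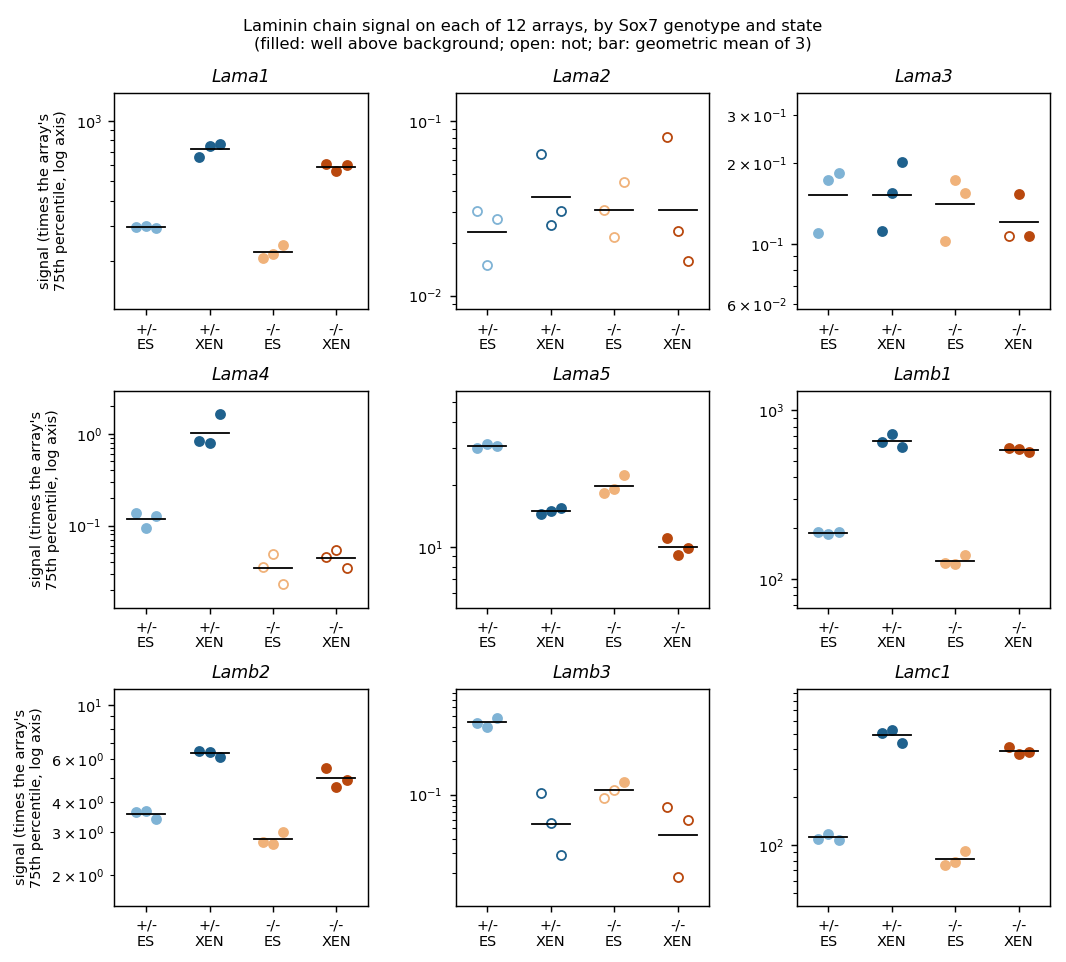
Signal of the 9 laminin genes on the 12 arrays, as multiples of the 75th percentile of the array on log axes with their own range for each gene; points are arrays (filled if well above background, open if not), and bars are the geometric means of the 3 arrays of a group. *Lama1*, *Lamb1* and *Lamc1* are higher in both XEN-like groups than in both ES groups, *Lama4* is well above background on *Sox7* (+/−) arrays alone, and *Lama2* on no array.

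*Lama1*, the α chain of laminin-111 (chromosome 17, 68171924 to 68171983, mm9), had signals of 296, 298 and 292 on the *Sox7* (+/−) ES arrays and 660, 752 and 768 on the XEN-like arrays. In *Sox7* (−/−) cells the signals were 207, 217 and 240 in ES and 608, 565 and 603 in XEN-like cells. Every XEN-like array was above every ES array. The log2 change was 1.30 (SE 0.0803, adjusted p = 2.81e-07) in *Sox7* (+/−) cells and 1.42 (SE 0.0803, adjusted p = 1.1e-07) in *Sox7* (−/−) cells, or 2.46-fold and 2.68-fold. The difference between these responses was 0.12, with a 95% interval from −0.129 to 0.377 (adjusted p = 0.455). Scaling by spike-in controls lowered the change in *Sox7* (+/−) cells to 0.817 and the deposited table, unscaled, to 0.883, both under the 2-fold minimum, with the median of all tested probes at −0.329 and −0.231.

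*Lamb1*, the β chain of the same trimer (chromosome 12, 32014411 to 32014470), rose from 189, 186 and 189 to 649, 724 and 604 in *Sox7* (+/−) cells. The rise in *Sox7* (−/−) cells was from 124, 122 and 139 to 597, 586 and 568. The ES groups did not overlap, with *Sox7* (−/−) cells lower, and neither did the XEN-like groups, by a narrow margin. The log2 changes were 1.81 (SE 0.0806, adjusted p = 2.48e-08) and 2.18 (SE 0.0806, adjusted p = 4.8e-09), or 3.5-fold and 4.55-fold. The response was larger in *Sox7* (−/−) cells by 0.38 on the log2 scale (SE 0.114, adjusted p = 0.0333), which is 1.3-fold and so under the minimum. Blocking by slide gave 0.412 with an adjusted p of 0.0878, above the threshold.

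*Lamc1*, the γ chain shared by most laminins (chromosome 1, 155066156 to 155066215), gave signals of 110, 118 and 108 in ES and 506, 529 and 437 in XEN-like cells of the *Sox7* (+/−) genotype. In *Sox7* (−/−) cells it gave 75.1, 78.8 and 92.2 in ES and 414, 375 and 382 in XEN-like cells. Its log2 changes, 2.13 (adjusted p = 3.49e-08) and 2.25 (adjusted p = 1.73e-08; SE 0.0994 for both), were 4.36-fold and 4.77-fold. The responses differed by 0.13 with an interval from −0.184 to 0.443 (adjusted p = 0.53). *Lamc1* had the largest called rise of the laminin genes in *Sox7* (−/−) cells. Over the 12 arrays the genes most like it were *Epas1* (Pearson's r = 0.998), a hypoxia-inducible transcription factor, *Lamb1* (0.997), *Dock5* (0.996), *Tek* (0.996), the angiopoietin receptor, and *Fst* (0.9955), follistatin. *Lama1* stood at rank 41 with r = 0.991. These values describe 4 groups of 3 arrays, and mostly the step between ES and XEN-like cells.

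The fitted rises of the 3 laminin-111 chains differed in size, but how evenly each probe's signal follows its RNA was not tested. The ratio of *Lama1* to *Lamc1* signal within an array, which does not depend on the scaling between arrays, fell 1.78-fold on Dex treatment in both genotypes (log2 changes of −0.828 and −0.834), and in both the 3 XEN-like arrays lay apart from the 3 ES arrays. For *Lamb1* to *Lamc1* the log2 ratio changed by −0.318 in *Sox7* (+/−) cells without overlap, and by −0.0699 in *Sox7* (−/−) cells with overlap. A two-sided exact permutation test gave p = 0.1 for each change without overlap, the smallest p that 3 arrays against 3 allow, and p = 0.3 for the last.

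*Lama5*, the α chain of laminin-511 and laminin-521 (chromosome 2, 179911079 to 179911138), moved in the opposite direction. Signals of 29.9, 31.5 and 30.7 in *Sox7* (+/−) ES cells stood against 14.4, 14.9 and 15.4 in XEN-like cells. In *Sox7* (−/−) cells 18.3, 19.0 and 22.2 stood against 11, 9.18 and 9.89. All XEN-like values were below all ES values, and within each state all *Sox7* (−/−) values were below all *Sox7* (+/−) values. The log2 change was −1.04 (SE 0.0912, adjusted p = 3.94e-06) and called in *Sox7* (+/−) cells, and −0.98 (SE 0.0912, adjusted p = 4.85e-06) in *Sox7* (−/−) cells, where 1.98-fold is just under the minimum. The threshold does not separate the genotypes: the difference between the responses was 0.06, with an interval from −0.23 to 0.345 (adjusted p = 0.777). The within-array ratio of *Lama1* to *Lama5* rose 5.05-fold in *Sox7* (+/−) and 5.29-fold in *Sox7* (−/−) cells, without overlap of ES and XEN-like arrays (exact permutation test, p = 0.1 for both).

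*Lamb2*, a β chain that takes the place of Lamb1 in basement membranes of vessels, kidney and synapses (chromosome 9, 108392189 to 108392248), was 1.78-fold higher in XEN-like than in ES cells of both genotypes, under the minimum fold. Its signals were 3.62, 3.67 and 3.41 in ES and 6.48, 6.42 and 6.13 in XEN-like cells of the *Sox7* (+/−) genotype, and 2.74, 2.69 and 3.0 in ES and 5.53, 4.6 and 4.92 in XEN-like cells of the *Sox7* (−/−) genotype. States did not overlap in either genotype. The log2 change was 0.83 in both (SE 0.0808, adjusted p = 8.64e-06 and 6.79e-06), and the responses differed by 0.00 with an interval from −0.252 to 0.257. The ratio of *Lamb2* to *Lamb1* within an array fell 1.97-fold and 2.55-fold, without overlap (exact permutation test, p = 0.1 for both).

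*Lamb3*, the β chain of laminin-332 of epithelia (chromosome 1, 195170009 to 195170068), was a dim gene that fell on Dex treatment of *Sox7* (+/−) cells. Its signals were 0.433, 0.404 and 0.484 in *Sox7* (+/−) ES cells and 0.103, 0.056 and 0.0288 in XEN-like cells, where no array was well above background. In *Sox7* (−/−) cells they were 0.0931, 0.111 and 0.129 in ES cells, with only the last well above background, and 0.0779, 0.0185 and 0.059 in XEN-like cells, with none. Where a probe was not well above background on all 3 arrays of a group, only a bound can be given: the mean of the brighter group against the mean, per array of the dim group, of the higher of the probe's own signal and the lowest signal among probes well above background. By this bound *Lamb3* was at least 4.44-fold higher in *Sox7* (+/−) ES than XEN-like cells (fitted log2 change −3.0, adjusted p = 0.000708), and with normexp background correction the change was −0.963, under the minimum fold. In *Sox7* (−/−) cells no bound is given, since only 1 array of the brighter group, ES, was well above background. The fitted change there was −1.32 with an adjusted p of 0.0504, just over the threshold. Leaving out *Sox7* (−/−) XEN-like replicate 1 or 2 moved this change to −1.74 or −0.701, and with the slide as a block it was −0.499 (adjusted p = 0.582). The difference in response was 1.67, with an interval from −0.0167 to 3.36 (adjusted p = 0.132).

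*Lama3* and *Lama2* gave little signal. The brightest *Lama3* probe lay between 0.103 and 0.202 on all 12 arrays, was well above background on 11 of them and passed no test (adjusted p from 0.381 to 0.987). For the Dex responses of *Lama3* the intervals ran from −0.626 to 0.637 in *Sox7* (+/−) and from −0.854 to 0.41 in *Sox7* (−/−) cells. A second *Lama3* probe was well above background on 2 arrays only, *Sox7* (−/−) ES replicate 3 (0.354) and *Sox7* (−/−) XEN-like replicate 1 (0.305), both on slide 1, and was not tested. Neither *Lama2* probe was well above background on any array, with signals from 0.015 to 0.0811.

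**Figure D2:**
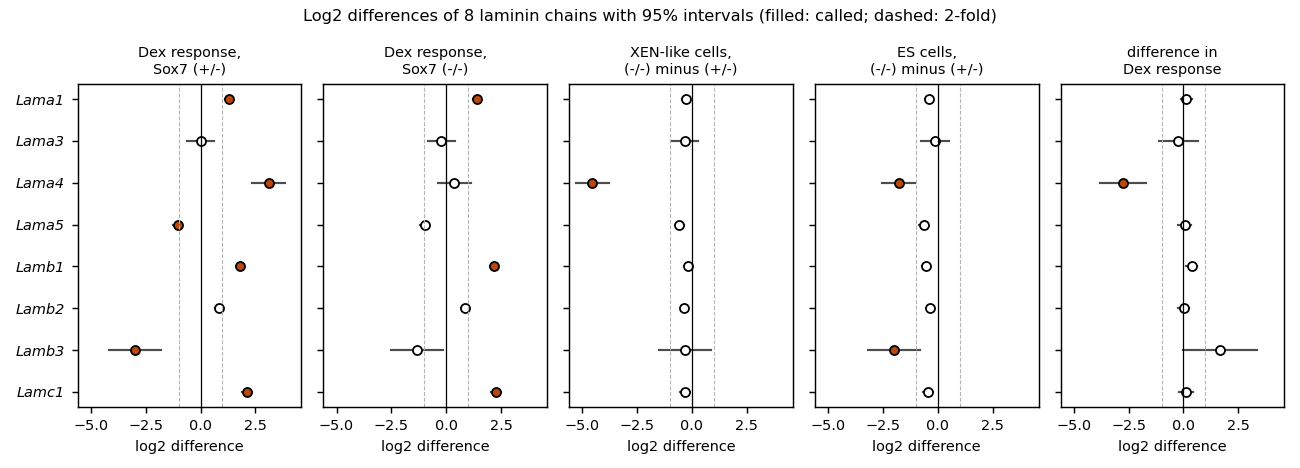
Log2 differences of the 8 tested laminin genes in 5 comparisons, with 95% intervals from limma; filled points were called and dashed lines mark 2-fold. *Lama1*, *Lamb1* and *Lamc1* lie to the right in both Dex responses, and *Lama4* is the gene called in each comparison between genotypes and in the difference of the responses (−2.76).

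*Lama4*, the α chain of laminin-411 and laminin-421 of vessels, was the laminin gene that differed most between genotypes in XEN-like cells. In ES cells *Lamb3* had the larger fitted difference, given below. *Lama4* is among the genes that the study itself picked from these arrays for a lower level in *Sox7* (−/−) cells, so its direction is not independent evidence. Signals were 0.137, 0.0936 and 0.128 in *Sox7* (+/−) ES cells and 0.832, 0.792 and 1.63 in *Sox7* (+/−) XEN-like cells. The rise of 3.11 on the log2 scale (SE 0.338, adjusted p = 1.98e-05) was 8.66-fold. Replicate 3 of the XEN-like cells was the highest, and leaving out each of the 12 arrays in turn gave changes between 2.78 and 3.3.

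On *Sox7* (−/−) arrays *Lama4* was not well above background, at 0.0357, 0.0494 and 0.023 in ES and 0.045, 0.0541 and 0.0347 in XEN-like cells. Groups of these dim values overlap, and no fold is given between them. In XEN-like cells the *Sox7* (+/−) level of *Lama4* exceeded the *Sox7* (−/−) level at least 13.6-fold (fitted log2 difference −4.54, adjusted p = 8.72e-06), and within slide 2 alone the fitted difference was −4.56. In ES cells it was at least 1.3-fold higher in the *Sox7* (+/−) genotype (fitted −1.78, adjusted p = 0.00204). Blocking by slide left the size of this ES difference at −1.84 and took its adjusted p to 0.0994, above the threshold, and normexp background correction or the deposited table gave −0.386 and −0.447, not called. The difference in Dex response was −2.76 (SE 0.478, adjusted p = 0.00231), and its size rests on dim signal on both *Sox7* (−/−) sides. It kept its call when blocked by slide (−2.72, adjusted p = 0.0181). In the deposited table, whose values are not background-subtracted, the *Sox7* (+/−) response, the XEN-like difference and the difference in response were smaller, 1.71, −2.1 and −1.65, and all called.

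Genes highly like *Lama4* over the 12 arrays were *Smpd2* (Pearson's r = 0.988), a sphingomyelinase, *St3gal2* (0.973), a sialyltransferase, a transcript of chromosome 3 without a gene symbol (0.963) and *2510003E04Rik* (0.960). On 6 of these arrays *Lama4* was not well above background. The other laminin genes were less like it, with *Lamb2* the nearest (r = 0.689).

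Markers of endothelium, a cell type in whose basement membrane Lama4 is found, were read beside this result. Summed over 7 genes they gave 15.2 to 19.3 in *Sox7* (+/−) XEN-like cells and 12.9 to 14 in *Sox7* (−/−) XEN-like cells, and 11.6 to 12.7 and 11.7 to 12 in the ES groups. In XEN-like cells 1 of the 5 tested, *Cdh5*, was lower in the *Sox7* (−/−) genotype (log2 difference −1.02, adjusted p = 0.000643) and none higher. Of all tested probes 3.64% were called lower and 3.87% higher in this comparison. *Emcn* was not well above background in any group, *Cldn5* in neither XEN-like group, and *Tie1* in none but *Sox7* (+/−) XEN-like cells. On Dex treatment of *Sox7* (+/−) cells *Tek* rose and *Pecam1* and *Cldn5* fell. In *Sox7* (−/−) cells *Tek* rose and *Cdh5*, *Pecam1* and *Cldn5* fell, with *Cldn5* not well above background in either group. Over all tested probes 10.9% rose and 14% fell in *Sox7* (+/−) cells, and 14.5% and 14.3% in *Sox7* (−/−) cells. The difference of responses was called lower for *Cdh5* and *Pecam1* and higher for *Cldn5*, beside 3.16% and 6.64% of all tested probes. The part of endothelial markers in the *Lama4* result was not tested.

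In the comparison of genotypes in XEN-like cells the fitted differences of the tested laminin genes other than *Lama4* lay below 0, each by less than 2-fold. For *Lamb3*, not well above background on any XEN-like array, and *Lama3* (interval from −0.97 to 0.293) no direction can be given. Both are nevertheless counted in the median below. In XEN-like cells 1 of the 8 tested genes (*Lama4*) was called lower in the *Sox7* (−/−) genotype and none higher, where 3.64% and 3.87% of all tested probes were. *Lama4* entered the tests through the *Sox7* (+/−) groups alone, so counts that include it are descriptions. At any fold, 5 of the 8 had an adjusted p under 0.05 and were lower, and 15.3% of all probes were. These tests share 1 spread over the 4 groups. The median SD of a probe was 0.197 in *Sox7* (+/−) XEN-like cells and 0.0872 to 0.109 in the other groups. With the replicate number as a block the adjusted p of *Lamc1* was 0.052, above the threshold. The groups did not overlap for 6 of the 8, all lower in *Sox7* (−/−) cells, against 21.3% of all probes. Examples were *Lama5* at −0.58 (adjusted p = 0.00114), *Lamb2* at −0.34 (adjusted p = 0.00951), *Lamc1* at −0.33 (adjusted p = 0.0293) and *Lama1* at −0.29 (adjusted p = 0.0187), while *Lamb1* was at −0.17 (adjusted p = 0.127). The median over the 8 genes was −0.332, beside 0.00207 over all probes.

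These small differences in XEN-like cells depended on the scaling. In the deposited table as given, which is not scaled between arrays, the differences of *Lama1*, *Lama3*, *Lamb1*, *Lamb2*, *Lamb3* and *Lamc1* were above 0, from 0.0352 to 0.26, and the median of all probes was 0.338. With spike-in scaling *Lamb1* was at 0.0766 and the median of all probes at 0.25. Under these 2 scalings *Lama4* was the only tested laminin gene with an adjusted p under 0.05 in XEN-like cells. Setting the values against the median of all probes would itself restore a scaling between arrays, so no conclusion is drawn from it.

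**Figure D3:**
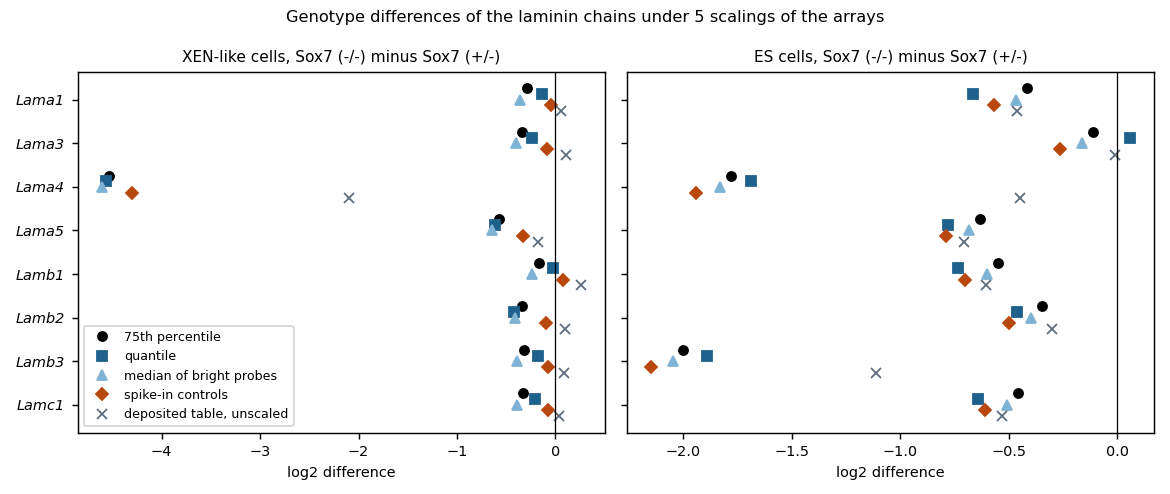
Log2 differences between genotypes, *Sox7* (−/−) minus *Sox7* (+/−), of the 8 tested laminin genes in XEN-like and in ES cells under 5 ways of scaling the arrays, shown by symbol; no error is drawn. In XEN-like cells most genes lie within 0.7 of 0 and cross it in the unscaled table, whereas *Lama4* stays below −2; in ES cells all values but that of *Lama3* with quantile normalization (0.0613) lie below 0.

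In ES cells 2 of the 8 (*Lama4* and *Lamb3*) were called lower in the *Sox7* (−/−) genotype, where 6.67% of all probes were, and none higher, where 1.94% were. Both genes entered the tests through *Sox7* (+/−) groups alone, where they were brighter. Their p-values and the counts that include them are therefore descriptions. *Lamb3* differed by −2.0 (SE 0.536, adjusted p = 0.0126) and by −3.23 with the slide as a block (adjusted p = 0.0469). With the *Sox7* (+/−) ES arrays averaged as 1 sample, its adjusted p was 0.138, and with normexp background correction the difference was −0.977, under the minimum fold. At any fold 7 of the 8 were lower with an adjusted p under 0.05, beside 16.9% of all probes, and these 7 also did not overlap between the groups, beside 24.7%. The differences were −0.63 for *Lama5* (adjusted p = 0.000416), −0.55 for *Lamb1* (adjusted p = 0.000468), −0.46 for *Lamc1* (adjusted p = 0.00439), −0.42 for *Lama1* (adjusted p = 0.00223) and −0.35 for *Lamb2* (adjusted p = 0.00639). Blocked by slide, *Lama5*, *Lamb1* and *Lamb2* kept an adjusted p under 0.05 (0.00877, 0.0344 and 0.0223), while *Lama1* (−0.476, adjusted p = 0.0731) and *Lamc1* (−0.585, adjusted p = 0.0695) did not. All 3 *Sox7* (−/−) ES arrays lay on slide 1 and all *Sox7* (+/−) ES arrays on slide 2, so this block separates slide from genotype only through the XEN-like arrays.

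In the difference of the Dex responses 1 of the 8 laminin genes was called lower (*Lama4*), with 3.16% of all probes, and none higher, with 6.64%. This count too is a description, since *Lama4* entered the tests through the *Sox7* (+/−) groups alone.

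Genes of the proteins that laminins meet in the basement membrane were read from a list of 7. *Nid1*, which bridges laminin and collagen IV, *Col4a1* and *Col4a2*, the chains of the main collagen IV, rose in both genotypes: by 3.59 and 3.08 for *Nid1*, by 2.44 and 3.14 for *Col4a1* and by 2.25 and 2.96 for *Col4a2* on the log2 scale in *Sox7* (+/−) and *Sox7* (−/−) cells (largest adjusted p = 3.38e-07, that of *Col4a2* in *Sox7* (+/−) cells). *Nid2*, the paralog of *Nid1*, was called in *Sox7* (−/−) cells (1.10, adjusted p = 0.000375) and had a change of 0.82 in *Sox7* (+/−) cells, with no difference shown between these (0.27, adjusted p = 0.467). *Col18a1*, the collagen XVIII proteoglycan core, was the list's called fall in both genotypes, at least 414-fold in *Sox7* (+/−) cells, where no XEN-like array was well above background, and by 8.21 on the log2 scale in *Sox7* (−/−) cells. Its difference in response was the only one of the list that was called by the brightest probe (1.17, adjusted p = 0.0352), and its size rests on that dim signal. The other *Col18a1* probe gave 1.92 (adjusted p = 2.57e-05). *Hspg2*, perlecan, was called in neither (0.47 and −0.30). *Agrn*, agrin, was called in neither by its brightest probe, but its responses, −0.56 and 0.33, differed by 0.89 (adjusted p = 7.23e-05), and by 2.31 at its other probe, which was dim. Of the 7 genes, 3 rose and 1 fell in *Sox7* (+/−) cells and 4 rose and 1 fell in *Sox7* (−/−) cells, and by the brightest probes none was called between genotypes in ES or in XEN-like cells. Over all tested probes 10.9% rose and 14% fell in *Sox7* (+/−) cells, and 14.5% and 14.3% in *Sox7* (−/−) cells. *Col4a1* and *Col4a2* had larger responses in *Sox7* (−/−) cells by 0.71 each, under 2-fold (adjusted p = 0.00851 and 0.0262).

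**Figure D4:**
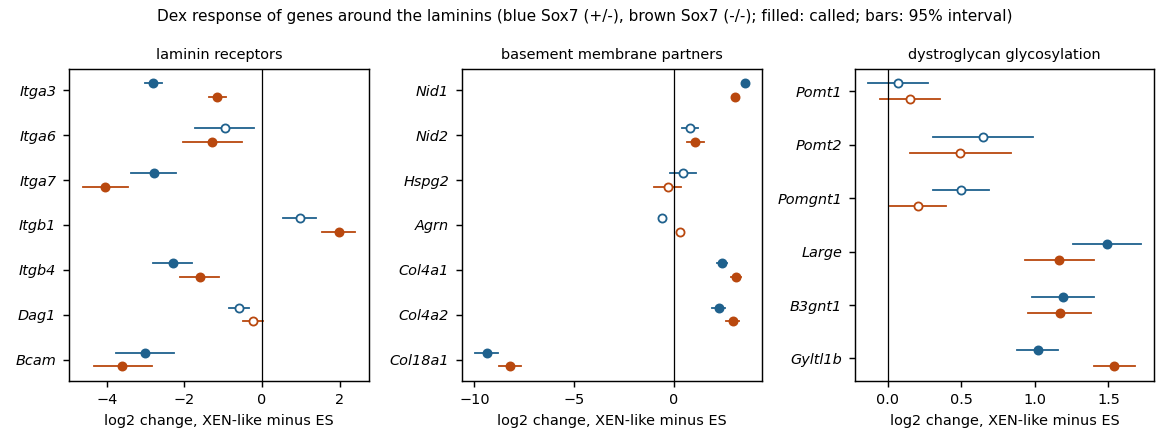
Log2 change on Dex treatment of laminin receptors, basement membrane partners and dystroglycan glycosylation genes, in *Sox7* (+/−) cells (blue) and *Sox7* (−/−) cells (brown), with 95% intervals and filled points where called; the axes differ between panels. *Nid1*, *Col4a1* and *Col4a2* lie to the right and *Col18a1* far to the left, most integrin and *Bcam* points lie to the left, and the glycosylation genes lie to the right of 0.

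Receptors of laminins moved mostly against the laminin-111 chains. Of 7 receptor genes, 4 fell and none rose in *Sox7* (+/−) cells, where 14% and 10.9% of all tested probes did. In *Sox7* (−/−) cells the same 4 fell and 1 rose, beside *Itga6*, whose probes disagreed. There 14.3% of all tested probes fell and 14.5% rose. *Bcam*, the Lutheran glycoprotein that binds Lama5, fell by 3.01 and 3.59 (adjusted p = 2.47e-05 and 5.22e-06), and in XEN-like cells it was called lower for the *Sox7* (−/−) genotype (−1.15, adjusted p = 0.0251). The XEN-like groups nevertheless overlapped for *Bcam*, at low mean log2 signals of −2.18 in *Sox7* (+/−) and −3.32 in *Sox7* (−/−) cells. *Itga7*, an α subunit best known from muscle, fell by 2.79 in *Sox7* (+/−) cells and at least 10.6-fold in *Sox7* (−/−) cells, with a called difference in response of −1.24 (adjusted p = 0.0319) that rests on dim XEN-like signal in the latter. *Itgb4*, the β subunit of hemidesmosomes, fell by 2.31 and 1.61. *Itga3*, the α subunit of a receptor of Lama3 and Lama5 laminins, fell by 2.80 in *Sox7* (+/−) and by 1.15 in *Sox7* (−/−) cells, and the difference between these responses, 1.65, was called (SE 0.139, adjusted p = 2.25e-05). *Itgb1*, the common β subunit, rose by 1.98 in *Sox7* (−/−) cells (adjusted p = 6.41e-06) and changed by 0.98 in *Sox7* (+/−) cells, just under 2-fold (adjusted p = 0.00123). The brightest *Itga6* probe changed by −0.96 and −1.28 and the other by 1.53 and 1.64, so no direction is given for this gene. *Dag1*, dystroglycan, was not called, at −0.60 and −0.24.

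Laminins bind dystroglycan through a sugar chain that a series of enzymes builds. Of 6 genes for these enzymes read here the same 3 rose in both genotypes, and none fell. Over all tested probes 10.9% rose in *Sox7* (+/−) and 14.5% in *Sox7* (−/−) cells, and 14% and 14.3% fell. *Large*, which extends the laminin-binding sugar, rose by 1.49 and 1.17, and *Gyltl1b*, its paralog, by 1.02 and 1.54. *B3gnt1*, which makes the primer that Large extends, rose by 1.19 and 1.17. *Pomt1*, *Pomt2* and *Pomgnt1*, which act early in the chain, were not called, with changes of 0.07, 0.65 and 0.49 in *Sox7* (+/−) and 0.15, 0.49 and 0.20 in *Sox7* (−/−) cells. No gene of this list was called between genotypes or in the difference of responses.

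Regulators and markers of endoderm place the laminin changes. *Gata4*, *Sox17* and *Foxa2* rose in both genotypes, by 1.54, 2.46 and 2.31 in *Sox7* (+/−) and by 1.73, 2.40 and 2.78 in *Sox7* (−/−) cells, and the probe of *Gata6* changed by 0.27 and 0.36, not called. All cells carry Gata6GR, built from full-length mouse *Gata6*, and whether this probe also reads that transgene was not determined. By qPCR in another line carrying Gata6GR, the paper found endogenous *Gata6* to rise within the first day of Dex. By western blot it also reports induction of Gata6 protein in XEN-like cells without *Sox7*. The probe value therefore does not show that endogenous *Gata6* stayed level. Markers of parietal endoderm, the cells that make Reichert's membrane, summed over 8 genes to 1520 to 1760 in *Sox7* (+/−) and 1300 to 1380 in *Sox7* (−/−) XEN-like cells. On Dex treatment 6 and 5 of the 8 rose, where 10.9% and 14.5% of all tested probes did. Markers of visceral endoderm summed to 34.7 to 37.3 in *Sox7* (+/−) and 148 to 167 in *Sox7* (−/−) XEN-like cells, where 4 of 6 tested were called higher and *Afp*, *Apoa1* and *Apob* were not well above background in either. In that comparison 3.87% of all tested probes were called higher. Of 6 markers of pluripotent ES cells 5 fell on Dex treatment in each genotype, and the other, *Klf4*, was called higher in *Sox7* (+/−) cells (1.45, adjusted p = 4.67e-08). Over all tested probes 14% fell in *Sox7* (+/−) and 14.3% in *Sox7* (−/−) cells. Between genotypes after Dex, *Esrrb* (4.63 by its brightest probe) and *Zfp42* were called higher in the *Sox7* (−/−) genotype. The other *Esrrb* probe, not well above background on any XEN-like array, gave −0.43, was not called and shows no direction. Trophoblast markers summed to at most 4.24 in any group, with *Elf5* below background in all. In XEN-like cells 3 of the 5 tested (*Cdx2*, *Eomes* and *Hand1*) were called higher in the *Sox7* (−/−) genotype and none lower. The brightest *Hand1* probe was not well above background in either XEN-like group. In ES cells the lower laminin signals of the *Sox7* (−/−) genotype stood beside other shifts. Over all tested probes 6.67% were called lower and 1.94% higher in *Sox7* (−/−) ES cells, with a median of 0.0959. Of the 8 parietal endoderm markers 5 (*Fst*, *Plat*, *Pth1r*, *Stra6* and *Thbd*) were called lower in *Sox7* (−/−) ES cells, with a median of −1.34 over the 8 and sums of 762 to 866 against 917 to 949. Visceral endoderm markers were called lower for 3 of 6 tested and trophoblast markers for 3 of 5, with none higher in either list, and 3 of 6 pluripotency markers (*Esrrb*, *Klf4* and *Zfp42*) were called higher, with sums of 453 to 487 against 214 to 226. Markers of fibroblast or smooth muscle summed to 68.2 to 78 in *Sox7* (+/−) ES cells and 13.7 to 15 in *Sox7* (−/−) ES cells, where 3 of the 5 tested were lower and 1 higher. The part of these markers in the laminin differences was not tested.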

How the data were processed

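The authors hybridized RNA of 12 samples to one-colour Agilent mouse arrays and deposited each array's Feature Extraction (10.7.3.1) output. Its processed intensity is background-subtracted by the authors' scanner software and not scaled between arrays. A deposited table of intensity values lay within 0.498% of the mean spot signal and is thus neither. Probe positions are those of the arrays, on mm9.

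Log2 processed intensity was set relative to the array's 75th percentile, spots flagged as outliers were left out, and spots of a probe were averaged (59305 spots, 55681 probes). Probes with all 3 arrays of some group well above background (25940) were fitted with limma 3.58.1 in R 4.3.3, 1 mean per group over 12 arrays. Calls needed an adjusted p (Benjamini-Hochberg) under 0.05 and over 2-fold. The number of arrays limits the precision. The procedure was tested on simulated data. Replicate numbers were not treated as pairs, since deviations of same-numbered arrays correlated between −0.0513 and 0.126 over 18 pairs. Genes named are the members, *Sox7*, called or otherwise discrepant genes of the lists, and the 5 genes most like the members with the largest called changes. The members, lists and tests were chosen with earlier results of these data known. Alternatives covered background correction, scaling, filters, probe choice, the slide or replicate number as a block, and leaving out each array. The deposited table scaled to the 75th percentile, and *Sox7* (+/−) ES arrays averaged as 1 sample, were chosen after seeing the data. Some genes of the lists, and 1 of the genes most like *Lama4*, are not reported here.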

Additional observations from a re-analysis of the deposited data

Results flagged for a closer look

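The Dex response of *Lama4* differed between the genotypes: the log2 change in *Sox7* (−/−) cells was lower than that in *Sox7* (+/−) cells by 2.76 (log2 difference −2.76, SE 0.478, adjusted p = 0.00231 by limma's test of the difference itself). *Lama4* was above all ES arrays on 3 of 3 *Sox7* (+/−) XEN-like arrays and not well above background on any of the 6 *Sox7* (−/−) arrays. The size and p-value of this difference therefore rest on dim signal in both *Sox7* (−/−) groups. *Lama4* also entered the tests through the *Sox7* (+/−) groups alone and was among the genes the study picked from these arrays. The test is thus a description and not independent evidence. No other laminin gene was called in this difference, and no laminin group of 3 arrays was tested for outlying arrays.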

How the results depend on the processing

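Dim signal limits what can be said of *Lama2*, *Lama3*, *Lamb3* and of *Lama4* in *Sox7* (−/−) cells. Of 268 counts of called genes under the alternatives 242 stayed within 1.5 times the main count and 26 moved. Of 1017 gene values 963 kept direction and side of the threshold, 9 lost and 15 gained a call, and 30 changed sign, in each case a value that was not called. The cause was not tested where none is given. Genes called lower on Dex treatment of *Sox7* (−/−) cells, 0 in the main setting, were 1 with quantile normalization, the mean over probes, no minimum fold or an intensity trend, 2 with the median of bright probes or spike-in scaling, and 0 to 2 on leaving out an array: *Lamb3* without *Sox7* (+/−) XEN-like replicate 1 or 3, *Lama5* without *Sox7* (−/−) ES replicate 1 or 2, and both without *Sox7* (−/−) XEN-like replicate 1. In *Sox7* (+/−) cells the lower count, 2, was 1 with normexp or with only probes above background everywhere, which removes *Lama4* and *Lamb3* by construction. That filter took the lower counts in XEN-like cells, in ES cells and in the difference to 0. The lower count in ES cells, 2, was 0 with normexp, 7 with no minimum fold and 1 with the deposited table as given or scaled, the slide block, or averaged *Sox7* (+/−) ES arrays. In XEN-like cells the lower count was 5 with no minimum fold. The higher count in the difference, 0, was 1 with the deposited table or no minimum fold, and 0 to 1 on leaving out an array (*Lamb3*, at 2.3, without *Sox7* (−/−) XEN-like replicate 2). Values of *Lama3* that changed sign were 0.0613 (quantile) and 0.142 (slide block) in ES cells, −0.102 (median of bright probes), −0.474 (spike-in) and −0.234 (deposited table) for the *Sox7* (+/−) response, and 0.174 and 0.117 (spike-in and deposited table) for the difference. With the deposited table the XEN-like differences were 0.0609 (*Lama1*), 0.109 (*Lama3*), 0.26 (*Lamb1*), 0.0929 (*Lamb2*), 0.0863 (*Lamb3*) and 0.0352 (*Lamc1*), and *Lamb1* was 0.0766 with spike-in scaling. *Lamb2* in the difference was −0.0132 with the median of bright probes. On leaving out each array, *Lama3* ran from −0.222 to 0.225 in the *Sox7* (+/−) response, from −0.339 to 0.112 in ES cells and from −0.451 to 0.000506 in the difference, *Lamb3* from −0.791 to 0.3 in XEN-like cells, and *Lama5* and *Lamb2* from −0.0108 to 0.142 and from −0.0699 to 0.0621 in the difference. With the replicate number as a block the called laminin genes were 4 higher and 2 lower in *Sox7* (+/−) cells and 3 and 0 in *Sox7* (−/−) cells, and 1 lower in XEN-like cells, 2 lower in ES cells and 1 lower in the difference, as without the block. Calls over all probes moved by less than 1.5 times under this block.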
